A study of Mus musculus with 8 samples.

Results

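Integrins are the receptors through which cells hold the extracellular matrix, and each receptor is a pair of 1 α and 1 β subunit that spans the membrane. Talins and kindlins bind the β tail and switch the receptor on, and vinculin, zyxin and the complex of ILK, PINCH and parvin join it to actin, while FAK, Src, paxillin and p130Cas carry signals from the adhesion site. In the early heart the endocardium is an endothelial layer that lies on a matrix rich in fibronectin, and the fibronectin receptor of endothelium is the pair of α5 and β1. The expression of these genes was examined in single endocardium cells at E8.5, with and without *Sox17*. Genes were chosen by a rule on names: those whose name begins with Itga or Itgb and a digit, *Itgav*, and 14 adhesion proteins inside the cell, from *Tln1* to *Src*. The rule was set with earlier results of these data known. The rule found 39 genes of the 33078 gene names on the array. Of them, 22 were integrin subunits, 14 adhesion proteins and 3 genes that match by name but are not subunits (*Itgb1bp1*, *Itgb1bp2* and *Itgb3bp*).

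The 8 cells came from embryos with 9 somites at E8.5, bred from *Mesp1* Cre/+ males and *Sox17* flox/flox females, and each was hybridized to its own 1-colour Agilent array. By the labels, all cells were freed with trypsin for 5 min. The study's methods give a shorter time, and name the heart ventricle as the source. The 4 WT cells were *Mesp1*+/+ and *Sox17* flox/flox, thus with floxed alleles and no Cre. The other 4 cells, *Sox17* KO, carried *Mesp1* Cre/+ beside the same floxed alleles. Cre then acts in cells that expressed *Mesp1*, the mesoderm that forms the heart, and takes the place of 1 *Mesp1* allele. Neither the labels nor the study's methods name the embryo of a cell, and cells of 1 genotype may share one, so that a genotype counted as 1 sample, no test was made, and differences are set against the spread between cells. All arrays were on 1 slide, where WT and KO cells took separate columns, and slide position cannot be told apart from genotype. Signals were scaled between arrays, values below a floor of 50 were set to it (5.64 on the log2 scale), and a probe counted as detected where the scanner software called it well above background.

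Depth differed between cells, with 11370 to 18175 probes detected in WT cells and 12781 to 16853 in KO cells. The targeted gene could not check the labels, because both *Sox17* probes were detected in 0 of 8 cells, with scaled signals up to 4.38 in WT and 6.18 in KO cells. All 10 endothelial markers were detected in at least 1 cell, with 7 to 10 of them per WT and 6 to 9 per KO cell and summed scaled signals of 10037 to 35685 and 7045 to 79403. Cardiomyocyte markers were also present, with 4 to 8 of 9 per WT and 3 to 7 per KO cell and sums of 370 to 46258 and 1010 to 48736. Endoderm markers were detected in 0 cells, and of the 5 erythroid, 5 platelet and 5 leukocyte markers at most 1, 2 and 2 were detected per cell. *Pf4*, *Ppbp* and *Gp9* (platelets) and *Ptprc*, *Tyrobp* and *Aif1* (leukocytes) were not detected in any cell. The part of other cell types in the results below was not tested.

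The 3 members picked out here were *Itgb1*, *Itga5* and *Zyx*. They alone were above the floor in all 4 KO cells with a KO mean higher by more than the SD between cells. The choice covered KO-high members only. *Vcl* (KO minus WT -1.62, SD 1.43) and *Itga2b* (-0.88, SD 0.72) had KO means lower by more than the SD. The deleted gene encodes a transcription factor of the SOX family. The start sites of the 3 chosen members are therefore shown first, from RefSeq on build GRCm38.p6. Each is 300 bases around the start site, 5′ to 3′ on the strand of the gene. The letters ACAAT or, on the other strand, ATTGT are in capitals. They are a form of the core of the sequence that SOX proteins bind, and other forms were not searched. The windows are chr8:128685404-128685703 on the + strand, chr15:103366742-103367041 on the - strand and chr6:42349578-42349877 on the + strand.
Itgb1: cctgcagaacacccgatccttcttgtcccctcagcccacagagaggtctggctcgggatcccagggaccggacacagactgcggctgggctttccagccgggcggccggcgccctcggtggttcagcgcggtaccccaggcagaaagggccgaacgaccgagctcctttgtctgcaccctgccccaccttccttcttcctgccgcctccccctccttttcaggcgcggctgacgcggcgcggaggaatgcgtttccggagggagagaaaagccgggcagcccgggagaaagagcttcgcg
Itga5: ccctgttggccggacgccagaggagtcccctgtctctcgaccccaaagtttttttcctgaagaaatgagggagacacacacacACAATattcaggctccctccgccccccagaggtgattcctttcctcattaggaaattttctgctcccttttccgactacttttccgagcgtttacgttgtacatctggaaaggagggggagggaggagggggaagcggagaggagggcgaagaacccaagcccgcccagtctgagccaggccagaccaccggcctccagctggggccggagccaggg
Zyx: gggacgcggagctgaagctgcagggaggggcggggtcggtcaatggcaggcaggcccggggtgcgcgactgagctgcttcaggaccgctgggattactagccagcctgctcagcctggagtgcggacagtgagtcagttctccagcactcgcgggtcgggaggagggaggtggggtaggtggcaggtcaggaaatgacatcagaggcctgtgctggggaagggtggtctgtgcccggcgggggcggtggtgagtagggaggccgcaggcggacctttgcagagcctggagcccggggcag

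The *Itga5* window held the letters once, at position -167 from the start site, and the windows of *Itgb1* and *Zyx* held 0 matches. The windows of *Vcl* and *Itga2b*, the KO-low members named above, also held 0 matches. Over the members, 8 of 35 promoters held a match (22.9%; 7 of the 29 members with a promoter in the table), against 10192 of 32851 promoters of the same length (31%). The member promoters were rich in CpG, with a median of 16 in 300 bases against 7 over all promoters. A match is no more than the presence of these letters, and its absence covers these letters and this window only.

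Of the 39 genes, 24 were detected in at least 1 cell (61.5%, against 57.5% of all gene names) and 8 in all 8 cells (17.2% of all gene names). Detection was lower for the receptors than for the proteins behind them. Among the 22 integrin subunits 11 were detected in any cell and 2 in all cells, *Itga5* and *Itgb2*, whereas 12 of the 14 adhesion proteins inside the cell were detected in any cell and 6 in all. This compares counts of genes with 1 probe each and no test was made. Each cell had 3 to 7 detected subunits and 7 to 11 detected adhesion proteins inside the cell. In all, WT cells 1 to 4 had 12, 16, 15 and 18 detected members, and KO cells 1 to 4 had 12, 12, 16 and 18. These counts overlapped between genotypes and were lowest in WT cell 1, the cell with the fewest detected probes, and in KO cells 1 and 2.

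The 15 members not detected in any cell were *Itga2*, *Itga3*, *Itga8*, *Itga9*, *Itga10*, *Itga11*, *Itgb2l*, *Itgb3*, *Itgb6*, *Itgb7*, *Itgb8*, *Pxn*, *Src*, *Itgb1bp2* and *Itgb3bp*. Among them are the β subunit that pairs with αv in angiogenic endothelium (*Itgb3*), paxillin (*Pxn*), a scaffold of adhesion sites, and the kinase *Src*. Their highest scaled signals were 23.3 for *Pxn* and between 4.05 and 9.12 for the others. A transcript not detected with 1 probe per gene from 1 amplified cell may still be present below the reach of the array. A further 6 members were detected but stayed under the floor in all cells (*Fermt3*, *Itga4*, *Itga7*, *Itgb2*, *Itgb4* and *Tln2*), 25% of the 24 detected against 28.1% of all detected genes.

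**Figure D1:**
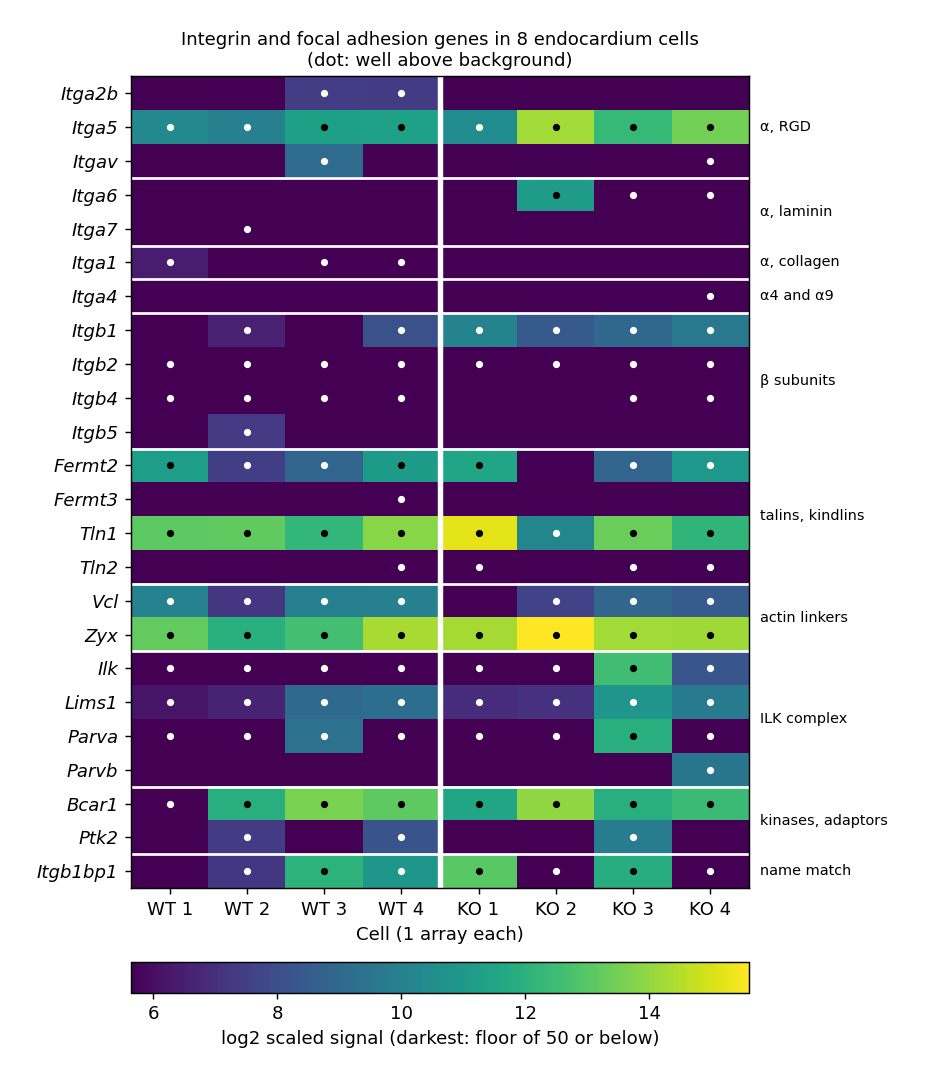
Scaled signal (log2, colour) of the 24 members detected in at least 1 of 8 endocardium cells, in rows grouped by role, with 1 column per cell and a dot where the probe was well above background. Colours are to be read along a row, since probes differ in brightness; *Itgb1* is brighter in all 4 KO cells than in the 4 WT cells, and *Ilk*, *Parva* and *Itga6* are at the floor in most cells.

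Over the 24 detected members, 10 had a higher mean in KO cells, 8 a lower mean and 6 were at the floor in both genotypes. Some of these signs were set by detection in 1 genotype alone, with the other at the floor. *Itga6* and *Parvb* were detected in KO cells only, and *Itga1*, *Itga2b* and *Itgb5* in WT cells only. The shares of all detected genes with a higher or lower mean were not counted. The median difference of mean log2 signals, KO minus WT, was 0 for the members and 0 for all genes, and over the 18 members above the floor in some cell it was 0.35, against 0.08 over the 13684 genes of that kind. The means were at least 5-fold higher in KO cells for 2 members, *Itgb1* and *Ilk* (8.33%, with 3.26% of the 19034 detected genes), and at least 5-fold lower for 0 members (3.4% of detected genes). All 4 KO cells lay above all 4 WT cells for 1 member, *Itgb1* (0.993% of detected genes), and below them for 0 (0.247% of detected genes). Counts of 1 and 2 among 24 members do not set the group apart from all genes, and no test was made. Of the 18 members above the floor in some cell, 6 had a difference over the pooled SD between cells (33.3%, against 17.6% of all such genes), and no test was made of this share. For 17 of the 18 (94.4%, against 99.1%), cells of 1 genotype spanned a wider range than the difference between the means, the exception being *Itgb1*.

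Among the β subunits, *Itgb1*, the common partner of most α subunits, was the one with the widest separation. WT cells 1 to 4 had log2 signals of 5.64, 6.57, 5.64 and 8.13, and KO cells 1 to 4 had 10.10, 8.46, 8.96 and 9.68. The KO cells were all higher than the WT cells, of which 2 were at the floor, and WT cell 4 came nearest to KO cell 2. The difference was 2.81 (SD 0.98 between cells, n = 4 each) or 6.99-fold, and lay between 2.52 and 3.35 when each cell was left out in turn. *Itgb1* is on a list of genes that the study chose on these same cells, so that this difference is not independent of that choice. Scaling to the 75th percentile or to the median of all probes, or leaving the arrays unscaled, each left the genotypes overlapping. The differences were 2.40, 2.26 and 2.15. The file gives no genome position for this probe, whose gene name stands beside a RefSeq accession. A second *Itgb1* probe (mm9 chr8:131246349-131246408, + strand) was detected only in WT cell 4 and was under the floor in all 8 cells, and the mean of both probes differed by 1.40.

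The other β subunits were low. *Itgb2*, which belongs to leukocyte integrins, was detected in all 8 cells at scaled signals of 13.9 to 43.3, all under the floor. *Itgb4*, the partner of α6 in hemidesmosomes, was detected in 4 WT and 2 KO cells, also under the floor. *Itgb5*, a partner of αv, was detected in WT cell 2 alone, at 7.28. With the floor applied to all cells, its mean was 1.33-fold higher in WT cells.

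Of the α subunits that bind RGD sites, *Itga5* was the only one detected in all 8 cells. The log2 signal of its probe (mm9 chr15:103175022-103175081, - strand) was 10.34, 10.002, 11.29 and 11.35 in WT cells and 10.49, 14.22, 12.33 and 13.50 in KO cells. KO cells 2 to 4 lay above every WT cell, while KO cell 1 lay among them. The difference was 1.89 (SD 1.25, n = 4 each), and was lowest, 1.36, with KO cell 2 left out and highest, 2.60, with KO cell 1 left out. Without KO cell 1 it passed 5-fold and the genotypes no longer overlapped.

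*Itgav*, the α subunit of vitronectin receptors, was above the floor in 1 of 8 cells, at 9.14 in WT cell 3, and was detected under the floor in KO cell 4. Its difference of -0.87 (SD 1.24) was 0.00 without WT cell 3. *Itga2b*, the α subunit of the platelet fibrinogen receptor, was at the floor in WT cells 1 and 2, at 7.44 and 7.38 in WT cells 3 and 4 and not detected in KO cells. With the floor applied to all cells, the WT mean was 1.84-fold higher (difference -0.88, SD 0.72). Its β partner *Itgb3* was detected in 0 cells, and platelet markers in both genotypes numbered 1 to 2 of 5 per cell.

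The α subunits for laminin and collagen were sparse. *Itga6*, a laminin receptor of endothelium, was detected in KO cells 2, 3 and 4 and in 0 of 4 WT cells, but only KO cell 2 exceeded the floor, at 11.10. With the floor applied to all cells, the KO mean was 2.57-fold higher (difference 1.36, SD 1.93), and the difference was 0.00 without KO cell 2. *Itga7* was detected in WT cell 2 and *Itga4*, a receptor for fibronectin and VCAM1, in KO cell 4, both under the floor. *Itga1*, a collagen receptor, was detected in 3 WT and 0 KO cells and was above the floor only in WT cell 1, at 6.44.

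Since an integrin works as a pair, the transcripts of both subunits were counted in each cell. Of 19 known pairs among the members, 7 were detected as pairs in some cell and 12 in none. The pair of *Itga5* and *Itgb1* was present in WT cells 2 and 4 and in all 4 KO cells, and both transcripts were above the floor in the same cells. *Itga6* with *Itgb1* was detected in 0 WT and 3 KO cells, and *Itga6* with *Itgb4* in 0 WT and 2 KO cells. Each of the remaining pairs, *Itgb1* with *Itga1*, *Itga7*, *Itga4* or *Itgav*, was detected in 1 cell. Because *Itgb1* enters 6 of the 7 pairs, the pairs do not count as separate evidence.

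**Figure D2:**
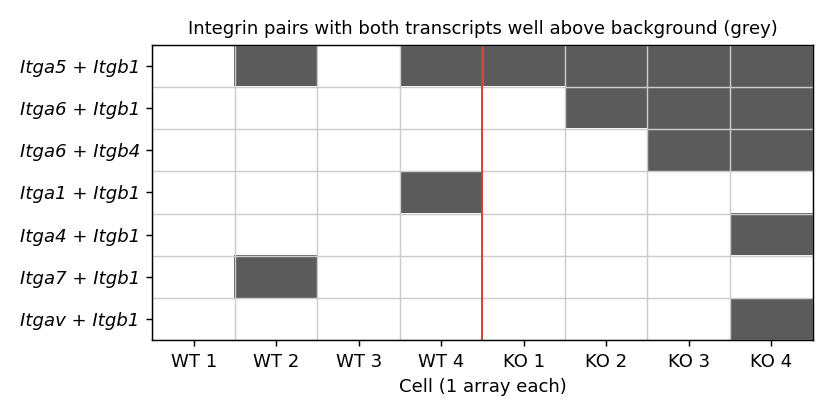
Integrin pairs (rows) whose α and β transcripts were both well above background in a cell (grey), in 4 WT and 4 KO endocardium cells (columns). The pair of *Itga5* and *Itgb1* fills 2 WT and 4 KO cells, and the other 6 pairs fill 1 to 3 cells each.

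The integrin activators did not separate the genotypes. *Tln1*, the talin that links the β tail to actin, was at 13.11, 13.18, 12.23 and 13.84 in WT cells and 15.19, 10.22, 13.33 and 12.15 in KO cells. KO cell 1 was the highest and KO cell 2 the lowest of all cells, and WT cells lay between them. The difference of -0.37 (SD 1.55) turned to 0.47 without KO cell 2. A second *Tln1* probe, 12808 bases away, was detected in 0 cells.

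*Fermt2* (kindlin-2) was at 11.23, 7.50, 8.91 and 11.09 in WT cells and at 11.54, 5.64, 8.88 and 10.97 in KO cells, with a difference of -0.43 (SD 2.27) that ran from -1.19 to 0.78 with cells left out. Its second probe, 977 bases away, was detected in all 8 cells but ordered them differently, with KO cell 2 highest at 12.28 and KO cells 3 and 4 at the floor. Thus even 2 probes of 1 gene disagreed on which cell was high. Whether both lie in the same transcript was not examined. *Fermt3*, the kindlin of blood cells, was detected in WT cell 4 alone, and *Tln2* in 1 WT and 3 KO cells, all under the floor.

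The 2 actin linkers had differences of opposite sign. *Zyx* (zyxin) was at 13.23, 11.96, 12.65 and 14.32 in WT cells and 14.26, 15.61, 14.23 and 14.17 in KO cells. WT cell 4 lay among the KO cells, and the other WT cells were below all of them. The difference was 1.53 (SD 0.86), from 1.17 to 1.96 with cells left out, and without WT cell 4 the genotypes did not overlap. *Vcl* (vinculin) was at 10.08, 7.22, 9.93 and 9.98 in WT cells and 5.64, 7.64, 8.93 and 8.52 in KO cells. WT cells 1, 3 and 4 were above all KO cells, while WT cell 2 was within their range. The difference was -1.62 (SD 1.43), from -2.31 to -0.94, and without WT cell 2 the genotypes did not overlap. A second *Vcl* probe was above the floor in WT cells 1 and 4 (7.58 and 10.43) and in 0 KO cells, a difference of -1.68.

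**Figure D3:**
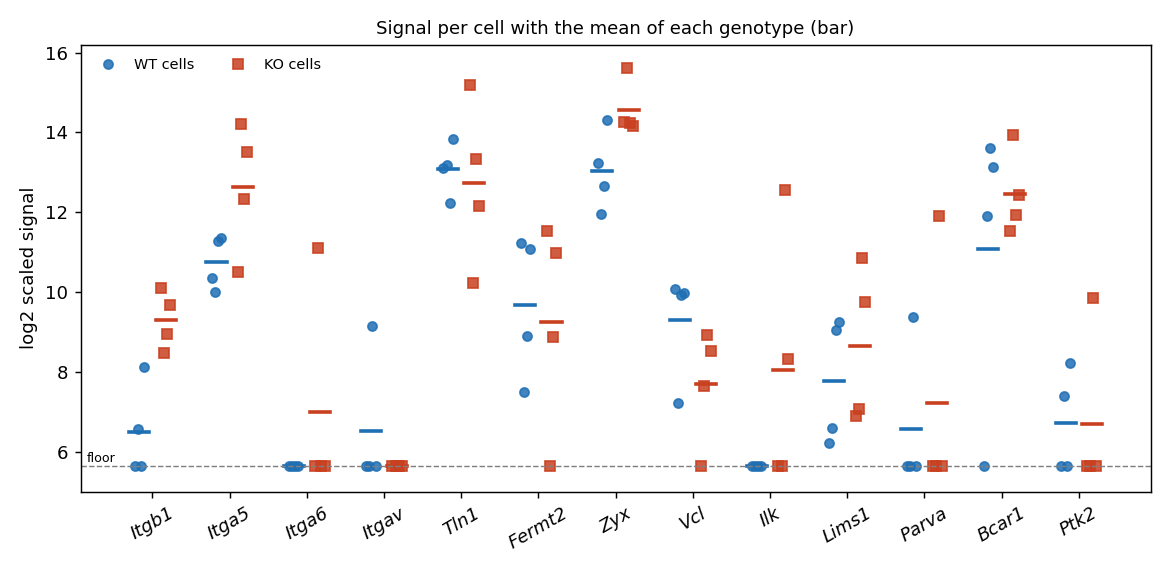
Log2 scaled signal of 13 members in each WT (circles) and KO (squares) cell, with the mean of 4 cells as a bar and the floor of 50 as a dashed line. Only the *Itgb1* points do not overlap between genotypes; levels are to be compared within a gene, not between genes.

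In the complex of ILK, PINCH and parvin, which binds the β1 tail, *Ilk*, *Lims1* and *Parva* were detected in all 8 cells. All 4 genes had the higher mean in KO cells, and for each the highest cell was KO cell 3 or KO cell 4. The 4 signs are thus not separate evidence, and the share of all genes with a higher KO mean was not counted. *Ilk* was at the floor in all 4 WT cells and in KO cells 1 and 2, whereas KO cell 3 had 12.55 and KO cell 4 had 8.32. Its difference of 2.40 (SD 2.30), or 5.26-fold, thus rested on those cells and was 0.89 without KO cell 3. Under the floor, *Ilk* had scaled signals of 21.1 to 48.5 in WT cells and of 24.3 and 33.9 in KO cells 1 and 2.

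*Lims1* (PINCH1) was at 6.21, 6.58, 9.05 and 9.26 in WT cells and 6.89, 7.08, 10.86 and 9.74 in KO cells. Both genotypes held 2 low and 2 high cells, and the difference was 0.87 (SD 1.80), from 0.13 without KO cell 3. *Parva* was above the floor in WT cell 3 (9.38) and KO cell 3 (11.91) only, and its difference of 0.63 (SD 2.58) was -0.94 without KO cell 3. A second *Parva* probe, 2222 bases away, was high in those cells and in WT cell 4 and KO cell 4 as well. *Parvb* was detected in KO cell 4 alone, at 9.53. The second *Lims1* probe was detected in 0 of 8 cells, as were the second probes of *Itgav* and *Itgb1bp1* and both further probes of *Ptk2*. The transcripts of *Ilk*, *Lims1* and a parvin were detected together in all 8 cells, and were above the floor together in 0 WT and 2 KO cells, KO cells 3 and 4.

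Of the kinases and adaptors, *Bcar1* (p130Cas) was detected in all 8 cells, at 5.64, 11.90, 13.61 and 13.13 in WT and 11.53, 13.94, 11.94 and 12.44 in KO cells. WT cell 1 stood at the floor and the other cells overlapped, so that the difference of 1.39 (SD 2.71) was -0.41 without WT cell 1. *Ptk2* (FAK) was detected in WT cells 2 and 4 (7.40 and 8.23) and in KO cell 3 (9.85), with a difference of -0.04 (SD 1.75). *Itgb1bp1*, whose product binds the β1 tail and opposes its activation, was high in WT cells 3 and 4 (12.10 and 10.91) and KO cells 1 and 3 (13.05 and 11.87), while WT cell 2 had 7.25 and the other 3 cells were at the floor, with a difference of 0.07 (SD 3.53).

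Over all 18 members above the floor, 7 kept the sign of their difference whichever cell was left out. Of these, *Itgb1*, *Itga5*, *Ilk*, *Lims1* and *Zyx* were higher and *Vcl* and *Itga2b* lower in KO cells. For *Itgb1* the sign could not change, since its genotypes did not overlap. Nor could it for *Ilk* and *Itga2b*, at the floor in all cells of 1 genotype and above it in 2 of the other. The share of all genes that kept their sign was not counted, so that the 7 do not set the members apart. No more than 4 members were above the floor in all 8 cells (*Itga5*, *Lims1*, *Tln1* and *Zyx*), and 5 were above it in 1 cell. The highest cell was a KO cell for 13 of the 18 members (72.2%, against 54.5% of all genes above the floor) and a WT cell for 5, and it was not the same cell for all. The 5 members above the floor in 1 cell enter this count through that cell alone, 2 of them (*Itga6* and *Parvb*) through a KO cell, and the count was not tested. KO cell 1 was highest for *Itgb1*, *Tln1*, *Fermt2* and *Itgb1bp1*, KO cell 2 for *Itga5*, *Itga6*, *Zyx* and *Bcar1*, and KO cell 3 for *Ilk*, *Lims1*, *Parva* and *Ptk2*. The median SD between cells was 1.49 for these members and 1.39 for all genes above the floor.

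**Figure D4:**
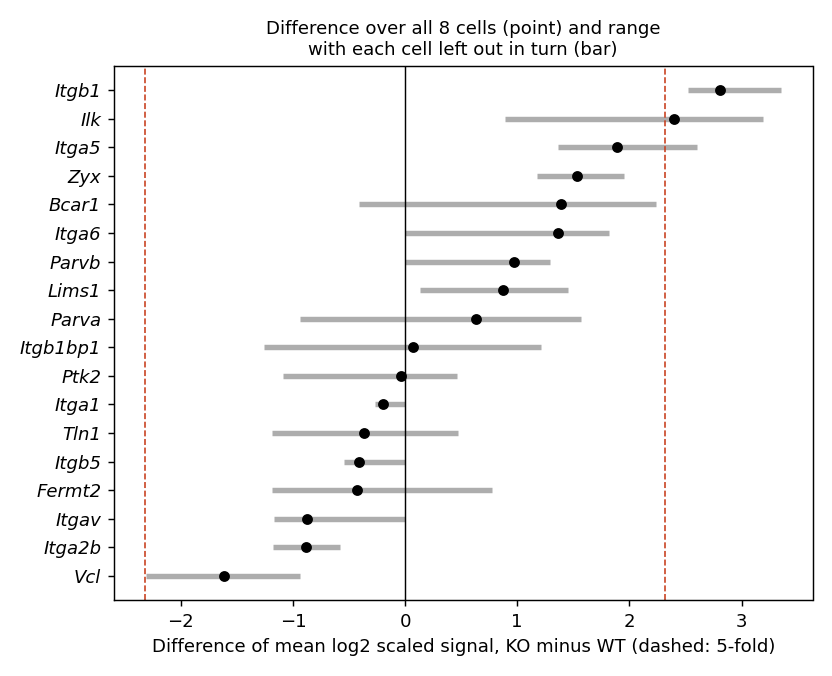
Difference of mean log2 scaled signal (KO minus WT, points) for the 18 members above the floor in some cell, with a bar for the range when each of the 8 cells was left out in turn and dashed lines at 5-fold. Bars of 7 members stay clear of 0, and only that of *Itgb1* lies wholly beyond 5-fold.

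The proteins that integrins bind, of the matrix and others, were examined as a list of 27 ligand genes. Of these, 16 were detected in at least 1 cell (59.3%, against 57.5% of all gene names) and 10 in all 8 cells (37%, against 17.2%), and the median difference of the detected genes was 0.05. *Fn1* (fibronectin), the ligand of the α5 and β1 pair, was at 16.48 to 17.69 in WT and 16.77 to 17.70 in KO cells, a difference of 0.35 (SD 0.52) with overlapping genotypes. Means were at least 5-fold higher in KO cells for 2 of the 16 detected ligand genes (3.26% of all detected genes) and at least 5-fold lower for 0 (3.4%). They were *Lamb1*, a laminin β chain, with a difference of 2.38 (SD 3.14), and *Mfge8*, a bridge from αv integrins to phospholipid, with 2.83 (SD 3.83). Both differences were smaller than the SD between cells.

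Of 39 other genes of adhesion sites, 34 were detected in at least 1 cell (87.2%, against 57.5% of all gene names) and 10 in all (25.6%, against 17.2%), with a median difference of 0.00. Of the 34, 3 were at least 5-fold higher in KO cells (8.82%, against 3.26% of all detected genes), the adaptor *Git1* at 2.52 (SD 2.44), *Kank1*, which binds talin, at 3.47 (SD 3.53) and *Cib1*, which binds the αIIb tail, at 2.66 (SD 3.27). A further 3 were at least 5-fold lower (8.82%, against 3.4%), the actin crosslinker *Actn4* at -2.79 (SD 3.46), the Ena/VASP protein *Evl* at -2.82 (SD 3.15) and *Dock1*, an activator of Rac downstream of p130Cas, at -3.56 (SD 1.84). *Dock1* was above the floor in WT cells 1, 2 and 4 (11.47, 10.78 and 8.92) and at the floor in WT cell 3 and all KO cells, so that the genotypes touched. No test was made of these shares. In either list 0 genes had genotypes that did not overlap. The 8 genes named here for their fold were chosen after their values were seen.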

How the data were processed

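The deposited files hold the scanner output per array (Agilent Feature Extraction 12.0.2.2, design 028005, probes on mm9, NCBI 37). In them the authors give intensity values that were background-subtracted by the scanner software, with no normalization between arrays. Control spots and outlier spots were left out, spots were averaged, and 55295 of 55681 probes were usable on all 8 arrays (386 left out; 0 saturated). Arrays were brought to a common 50th percentile over the 7570 probes detected (well above background) on every array, a floor of 50 was applied, and log2 values were used. Of several probes, the one with the highest mean signal stands for a gene. All 39 member accessions matched RefSeq symbols. Named members are those at least 5-fold apart, not overlapping, detected in all 8 cells, or in a fixed set of 18 endothelial adhesion genes. Members and lists were chosen with earlier results of these data known. Folds between means set undetected cells of both genotypes at the floor and are not lower bounds. Alternatives were other percentiles, no scaling between arrays (floor kept), quantile normalization, normexp (offset 50) and floors of 10 and 200. Further ones were the mean of probes, other detection filters and leaving out each cell. The number of arrays limits the precision. Steps were tested on simulated data, with less spread between cells than in these data and with shifts put into bright probes only. That test does not cover values at the floor. Python 3.11.15 (numpy 2.4.6, pandas 2.3.3, scipy 1.17.1, matplotlib 3.10.9), R 4.3.3 and limma 3.58.1 were used.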

Additional observations from a re-analysis of the deposited data

Results flagged for a closer look

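The 24 detected members and 2 values per cell (the count of detected members and the median signal of members above the floor) were examined in each genotype, 52 sets of 4 cells, of which 33 had any spread. In 10 of them, 1 cell lay far from the other 3, with a ratio of its gap to the whole range above the 95% critical value of Dixon's test for 4 samples. That test gives such a ratio in about 1 in 20 sets of measured values by chance, a rate that is not valid for values set to a floor. For 8 of the 10 sets the other 3 cells were at the floor, so that the ratio is 1 whatever the size of the gap. They were *Itga1* in WT cells (WT cell 1 at 6.44), *Itga6* in KO cells (KO cell 2 at 11.10), *Itgav* in WT cells (WT cell 3 at 9.14), *Itgb5* in WT cells (WT cell 2 at 7.28), *Parva* in WT cells (WT cell 3 at 9.38), *Parva* in KO cells (KO cell 3 at 11.91), *Parvb* in KO cells (KO cell 4 at 9.53) and *Ptk2* in KO cells (KO cell 3 at 9.85). *Vcl* in WT cells had a ratio of 0.948, with WT cell 2 below the others at 7.22. *Zyx* in KO cells had a ratio of 0.938, with KO cell 2 above the others at 15.61.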

How the results depend on the processing

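The count of members at least 5-fold higher in KO cells was 2 in the main setting. It was 1 with the 75th percentile or quantile normalization (*Itgb1*). It was also 1 (*Ilk*) with the percentile over all probes, unscaled arrays, the mean of all probes or only genes detected in all 8 cells. It was 0 with normexp or a floor of 200. It was 1 to 3 with each cell left out, 1 (*Itgb1*) without KO cell 3 or KO cell 4 and 3 (with *Itga5*) without KO cell 1. The count of members with all KO above all WT cells was 1 in the main setting. It was 0 with the 75th percentile, the percentile over all probes, unscaled arrays or only genes detected in all 8 cells, which leaves out *Itgb1*. It was 2 with a floor of 10 (*Itgb1* and *Tln2*). It was 1 to 2 with each cell left out, 2 without WT cell 4 (with *Zyx*) or KO cell 1 (with *Itga5*), and the count with all KO below all WT cells was 0 to 1, the 1 being *Vcl* without WT cell 2. The median difference over the members was 1.13 with only genes detected in all 8 cells, against 0.10 for all genes. Detected members numbered 8 when detection in all 8 cells was asked for and 39 with no filter, and 22 to 24 with each cell left out. The median of all genes moved by 0.23 with normexp and 0.15 with a floor of 10. Of 350 differences of named members under alternatives, 338 moved by no more than 1 SD. Settings that change only the detection filter cannot move a difference, and members at the floor stay at 0 under most settings. The count is thus partly fixed in advance and does not measure stability. The difference of *Itgb1* ran from 1.40 (mean of both probes) to 3.97 (floor of 10), and that of *Ilk* from 1.40 (floor of 200) to 2.89 (floor of 10). The differences of *Fermt2* and *Ptk2*, below the SD between cells, changed sign with a floor of 200 (0.04 and 0.40), and that of *Ptk2* also with quantile normalization (0.21). Other causes of these changes were not tested. No paired analysis was possible because the replicate numbers name cells of no stated embryo and the results come from no test.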

Other observations

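*Itgam*, the α subunit of a leukocyte integrin, lies outside the name rule and was detected in all 8 cells by its brightest probe (mm9 chr7:135261755-135261814), at 14.46, 12.43, 12.59 and 12.63 in WT and 16.05, 12.34, 13.74 and 13.50 in KO cells. The genotypes overlapped, with a difference of 0.88 (SD 1.29). Its other 2 probes were under the floor in all cells, at scaled signals of 8.60 to 32.5, so that the probes of this gene disagreed. Of the 5 leukocyte markers, *Ptprc*, *Tyrobp* and *Aif1* were not detected, *Cd68* was detected under the floor, and *Csf1r* was the one above it. *Itgal*, another leukocyte subunit, was detected in all 8 cells and was above the floor in 3 of them. The remaining 3 of 5 integrin genes outside the rule were not detected.

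Among the 8 detected members with 2 or more probes with a genome position, the brightest probe was the one nearest the 3′ end for 5 (62.5%), against 3185 of 7097 genes (44.9%). No test was made of this share.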
